A study of Mus musculus with 8 samples.

Results

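The genes described here are the DNA replication genes of the mouse, a set of 39 genes fixed by name that act at the entry into S phase and during the copying of DNA. They were read from the deposited table of protein-coding genes by gene symbol. Of the 39 listed genes, 37 were found among the 22053 rows of the table, and Cdt1 and Gins2 were not analysed here. The set was not chosen by its values. Expression was measured by bulk RNA-seq in cells sorted from wild-type (WT) mice at postnatal day 10. The groups were 4 libraries of candidate vSSCs, primary vertebral cells from spine, and 4 libraries of lbSSCs, primary long bone cells from femur and tibia together. Each group held 2 male and 2 female libraries, with replicates 1 and 2 male and replicates 3 and 4 female. Both groups were sorted by 1 surface profile, CD31-TER119-CD45-Thy-6C3-CD200+CD105-, which is used for skeletal stem cells and leaves out endothelial, red and white blood cells. The labels call the samples biological replicates without giving strain or the number of animals in each, so p-values measure only the spread between these samples.

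DNA replication is prepared in G1, when the origin recognition complex, Cdc6 and Cdt1 load the ring-shaped MCM helicase on DNA at origins. Cyclin E and its kinase then drive cells into S phase, where MCM joins Cdc45 and GINS, the strands are unwound, and primase, the polymerases, the sliding clamp PCNA and its loader copy them while nucleotide enzymes supply deoxynucleotides. Many of these genes are targets of E2F transcription factors, so their transcripts are most abundant in cells near the start of S phase. In growing bone such transcripts mark cells that divide, as in the proliferating zone of growth plate cartilage. In RNA from a pool of cells, a larger share of cells in S phase and more of these transcripts per cell cannot be told apart.

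Values were FPKM, fragment counts scaled to the length of the transcript and to the total of the library, and read depth was not used here, so no counting interval is given. The FPKM sum over protein-coding genes was 517314 to 571869 in vSSC libraries and 460302 to 521489 in lbSSC libraries. Cartilage markers were high in both groups, with a summed level of 13152 to 22192 FPKM over 6 genes in vSSC and 15450 to 25633 FPKM in lbSSC, and of these genes Matn3 was called, higher in vSSC. Of the genes behind the sorting profile, Cd200 averaged 109.3 ± 22.5 FPKM in vSSC and 101.0 ± 28.1 FPKM in lbSSC (SD, n = 4 each) and was not called, and Thy1, Enpep, Eng, Pecam1 and Ptprc failed the expression filter. All 6 endothelial markers failed it, with sums of 0.210 to 0.287 FPKM in vSSC and 0.0752 to 0.179 FPKM in lbSSC. The 5 muscle markers failed it too, and Myod1 and Myf5 were listed at 0 in all 8 libraries. Of the osteoblast markers 6 of 6 were tested, Sp7 was higher in vSSC and Col1a1 and Bglap were lower. Blood RNA was present in both groups and is given beside the results it moves with.

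DNA replication genes were more abundant in vSSC. Of the 35 genes that passed the expression filter (at least 4 libraries with an FPKM of 1 or more), 17 were higher in vSSC and none was lower at a limma adjusted p under 0.05, while 14.3% of the 10729 tested genes were called higher and 9.17% lower. All 35 differences were above 0 as deposited, as were 6285 of the 10729 tested genes. Mcm4 fell below 0 under each of the other scalings of the libraries and without lbSSC replicate 1 or lbSSC replicate 4, Rfc3 did without lbSSC replicate 4, and Gins1, Pola1, Rfc2, Fen1, Rrm2, Uhrf1 and Slbp did with the share of ribosomal protein transcripts as a covariate. At an unadjusted p under 0.05, 23 of the 35 were higher and none was lower, while 4119 of the 10729 tested genes reached it in either direction. The median difference was 0.47 on the log2(FPKM + 1) scale, against 0.08 over all tested genes. The 4 vSSC values lay above all 4 lbSSC values in 16 of the 35 genes, a pattern found in 15.8% of all tested genes, and the reverse was found in none of the 35, against 9.99% of all tested genes. Differences were moderate in size: Ccne2 alone was higher by at least 1 on the log2(FPKM + 1) scale and called, as were 1.96% of all tested genes. The count of 17 was 11 without vSSC replicate 1 (8.06% of all tested genes called higher), 10 without lbSSC replicate 3 (7.92%) or lbSSC replicate 4 (7.82%), 11 after rescaling libraries to 1 FPKM sum (9.34%) and 0 with the share of ribosomal protein transcripts as a covariate (2.22%), so calls were also fewer over all genes in these fits. Orc1 and Pole failed the filter and were not tested. Mcm10, 1 of the 17, passed it only through its vSSC libraries.

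**Figure D1:**
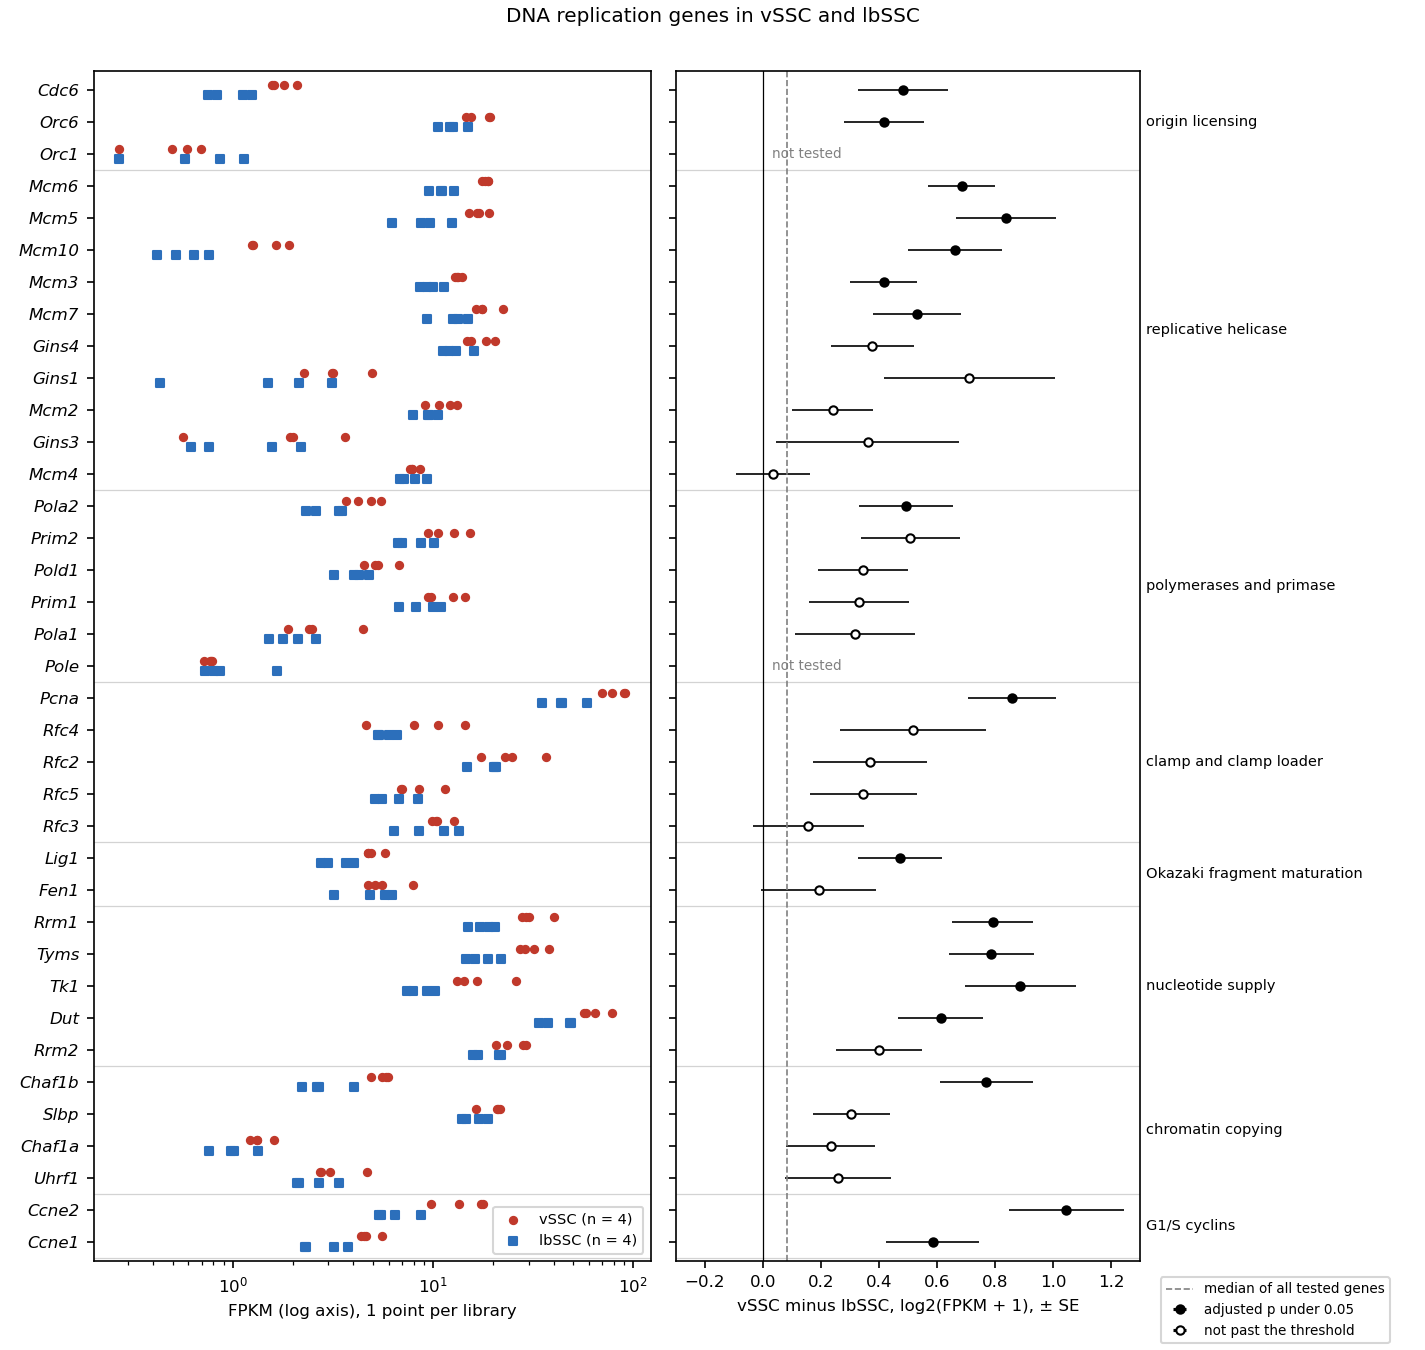
FPKM of each DNA replication gene in each library (left, log axis, 1 point per library, vSSC circles above lbSSC squares) and the difference vSSC minus lbSSC of log2(FPKM + 1) with its SE (right, filled where the limma adjusted p was under 0.05). All 35 tested differences lie right of 0, the 17 filled ones between 0.42 and 1.05, and Mcm4 lies closest to 0 at 0.03.

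On the log2(FPKM + 1) scale the largest difference was in Ccne2, cyclin E2, which with cyclin-dependent kinase Cdk2 triggers entry into S phase. It had 17.9, 13.6, 17.5 and 9.79 FPKM in vSSC libraries 1 to 4, against 5.53, 8.74, 6.46 and 5.35 FPKM in lbSSC libraries 1 to 4. Its lowest vSSC library stood above its highest lbSSC library, and the ratio of the means was 2.25. By that ratio Mcm10, a gene of low level, stood higher, at 2.59. The difference of Ccne2 was 1.05 ± 0.20 (SE, n = 4 each; limma adjusted p = 0.00373). The second E-type cyclin, Ccne1, was lower in level and also higher in vSSC, with 5.56, 4.51, 4.65 and 4.38 FPKM in vSSC libraries against 3.19, 3.74, 2.31 and 2.29 FPKM in lbSSC libraries. The groups did not overlap, and the difference was 0.58 ± 0.16 (SE; limma adjusted p = 0.0230). Both genes of this role were thus called higher, where 14.3% of all tested genes were. Ccne2 lies at chr4:11191351-11204779 (GRCm38) and overlaps Ints8 on the opposite strand, and since the library chemistry does not mark the strand, reads from the shared stretch cannot be told apart.

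In nucleotide supply, 4 of 5 genes were higher in vSSC and the median difference was 0.79. Over all tested genes 14.3% were higher and the median was 0.08. Rrm1, the large subunit of ribonucleotide reductase, which makes deoxynucleotides, had 40.0, 27.8, 30.3 and 29.1 FPKM in vSSC libraries against 18.99, 20.4, 17.1 and 14.998 FPKM in lbSSC libraries. Every vSSC library exceeded every lbSSC library, and the difference was 0.79 ± 0.14 (SE; limma adjusted p = 0.00243). Tyms, thymidylate synthase, had 37.8, 32.0, 28.8 and 27.3 FPKM in vSSC libraries and 21.9, 18.7, 14.6 and 16.2 FPKM in lbSSC libraries. It differed by 0.79 ± 0.15 (SE; limma adjusted p = 0.00322), again with no overlap. Tk1, the thymidine kinase that salvages thymidine, averaged 17.5 ± 5.76 FPKM in vSSC and 8.74 ± 1.31 FPKM in lbSSC (SD, n = 4 each), with vSSC replicate 1 at 25.9 FPKM well above the other vSSC libraries. The groups stood apart without that library too, and the difference was 0.89 ± 0.19 (SE; limma adjusted p = 0.00769). Dut, the dUTPase that keeps uracil out of DNA, averaged 64.6 ± 9.83 FPKM in vSSC and 42.1 ± 7.54 FPKM in lbSSC, a difference of 0.61 ± 0.15 (SE; limma adjusted p = 0.0127). Rrm2, the small subunit whose level changes through the cell cycle, had 28.0, 23.4, 29.2 and 20.6 FPKM in vSSC libraries and 21.4, 21.9, 16.7 and 15.8 FPKM in lbSSC libraries. Here the groups overlapped, since vSSC replicate 4 lay below lbSSC replicates 1 and 2, and the difference of 0.40 ± 0.15 (SE) did not pass (limma adjusted p = 0.0702). Tyms has a pseudogene in the annotation, Tyms-ps, so its level is uncertain to the extent that reads were shared, and Tk1 overlaps Gm20708 and Afmid on the opposite strand.

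Of the sliding clamp and its loader, the clamp alone was called, 1 of 5 tested genes of the set, near the share of 14.3% higher over all tested genes. Pcna had the highest level of the whole set, with 89.5, 77.9, 91.4 and 69.8 FPKM in vSSC libraries against 43.4, 58.5, 44.2 and 35.2 FPKM in lbSSC libraries. No lbSSC library reached the lowest vSSC library, and the difference was 0.86 ± 0.15 (SE; limma adjusted p = 0.00231). The gene lies at chr2:132249162-132253314 and has 2 annotated pseudogenes, Pcna-ps1 and Pcna-ps2, with which reads may be shared. The 4 loader subunits of the set, Rfc2, Rfc3, Rfc4 and Rfc5, had differences of 0.16 to 0.52 and none passed. Rfc1, a loader subunit outside the set, differed by 0.01 ± 0.23 (SE, limma adjusted p = 0.972). Rfc4 was the most scattered, with 14.4, 4.60, 10.6 and 8.08 FPKM in vSSC libraries and 6.63, 5.31, 6.02 and 5.40 FPKM in lbSSC libraries, so that vSSC replicate 2 lay below every lbSSC library (limma adjusted p = 0.153). Rfc2 averaged 25.4 ± 8.10 FPKM in vSSC and 18.9 ± 2.80 FPKM in lbSSC, and Rfc5 8.50 ± 2.15 FPKM in vSSC and 6.45 ± 1.46 FPKM in lbSSC (SD, n = 4 each). Rfc3 averaged 10.9 ± 1.26 FPKM in vSSC and 9.93 ± 3.09 FPKM in lbSSC, and its vSSC values fell inside the lbSSC range. On the opposite strand Rfc4 overlaps Eif4a2, Rfc2 overlaps Lat2 and Rfc5 overlaps Wsb2. Whether the clamp differed more than its loader was not tested.

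Of 10 tested genes of the replicative helicase 5 were higher in vSSC, where 14.3% of all tested genes were. The 5 were Mcm3, Mcm5, Mcm6 and Mcm7 of the MCM ring and Mcm10, which helps to activate the loaded ring. Mcm5 had 18.95, 17.0, 16.6 and 15.2 FPKM in vSSC libraries against 9.65, 12.4, 8.75 and 6.21 FPKM in lbSSC libraries, a difference of 0.84 ± 0.17 (SE; limma adjusted p = 0.0060). Mcm6 varied little within vSSC, with 18.3, 18.7, 18.9 and 17.6 FPKM, against 11.02, 12.8, 11.1 and 9.51 FPKM in lbSSC libraries (difference 0.69 ± 0.12, SE; limma adjusted p = 0.00171). In both genes the groups were clearly apart. Mcm3 averaged 13.3 ± 0.474 FPKM in vSSC and 9.80 ± 1.15 FPKM in lbSSC, and Mcm7 18.5 ± 2.60 FPKM in vSSC and 12.6 ± 2.35 FPKM in lbSSC (SD, n = 4 each), with differences of 0.42 ± 0.12 and 0.53 ± 0.15 (SE; limma adjusted p = 0.0256 and 0.0277). Mcm7 overlaps Cops6 and Ap4m1 on the opposite strand. Mcm10 was much lower in level, with 1.91, 1.26, 1.65 and 1.24 FPKM in vSSC libraries and 0.764, 0.638, 0.417 and 0.520 FPKM in lbSSC libraries. The groups did not overlap (0.66 ± 0.16, SE; limma adjusted p = 0.0136). Only its vSSC libraries reached an FPKM of 1, so it passed the filter through the group where it is higher.

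The other subunits of the ring did not pass. Mcm4 had 7.85, 8.65, 7.65 and 7.88 FPKM in vSSC libraries and 7.13, 9.28, 8.10 and 6.84 FPKM in lbSSC libraries, so that all 4 vSSC values fell inside the lbSSC range (0.03 ± 0.13, SE; limma adjusted p = 0.867). Mcm2 had 10.7, 13.2, 9.09 and 12.1 FPKM in vSSC libraries and 9.52, 10.6, 9.39 and 7.94 FPKM in lbSSC libraries, and the groups overlapped through vSSC replicate 3 (0.24 ± 0.14, SE; limma adjusted p = 0.230). GINS, the complex that joins MCM and Cdc45 in the active helicase, was represented by 3 subunits and none was called. Gins1 was widely scattered, with 4.97, 3.13, 3.16 and 2.27 FPKM in vSSC libraries and 2.14, 3.14, 0.434 and 1.51 FPKM in lbSSC libraries (0.71 ± 0.30, SE; limma adjusted p = 0.101). Gins4 averaged 17.3 ± 2.65 FPKM in vSSC and 13.1 ± 2.11 FPKM in lbSSC, and Gins3 2.03 ± 1.26 FPKM in vSSC and 1.29 ± 0.739 FPKM in lbSSC (SD, n = 4 each; limma adjusted p = 0.0783 and 0.428).

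Because the MCM ring holds 1 copy of each of its subunits, the ratio of subunit transcripts within a library was compared, a measure that does not depend on how libraries are scaled. The comparison was chosen after the values had been seen. All 15 pairs of Mcm2 to Mcm7 were tested by exact two-sided permutation of the 8 libraries, for which the smallest possible p is 0.0286, with Benjamini-Hochberg adjustment over the pairs. The log2 ratio differed in 9 of 15 pairs (exact permutation p = 0.0286, adjusted p = 0.0476), and in these 9 the groups did not overlap. Mcm4 took part in 4 of them, lower in vSSC relative to Mcm5 by 0.87, to Mcm6 by 0.69, to Mcm7 by 0.53 and to Mcm3 by 0.41 on the log2 scale. The log2 ratio of Mcm4 over Mcm6 was -1.20 ± 0.0817 in vSSC and -0.504 ± 0.0837 in lbSSC (SD, n = 4 each), so Mcm6 exceeded Mcm4 in both groups and by more in vSSC. Mcm2 was lower in vSSC relative to Mcm5 and Mcm6, Mcm3 relative to Mcm5 and Mcm6, and Mcm7 relative to Mcm5. The pairs share 6 genes and are not independent. All 9 pairs sit at the smallest possible p, so their adjusted p rests on how many pairs reach it. The ratios restate the differences of single genes that prompted the comparison and are no separate support for them. How often the ratio of other gene pairs differs was not computed.

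**Figure D2:**
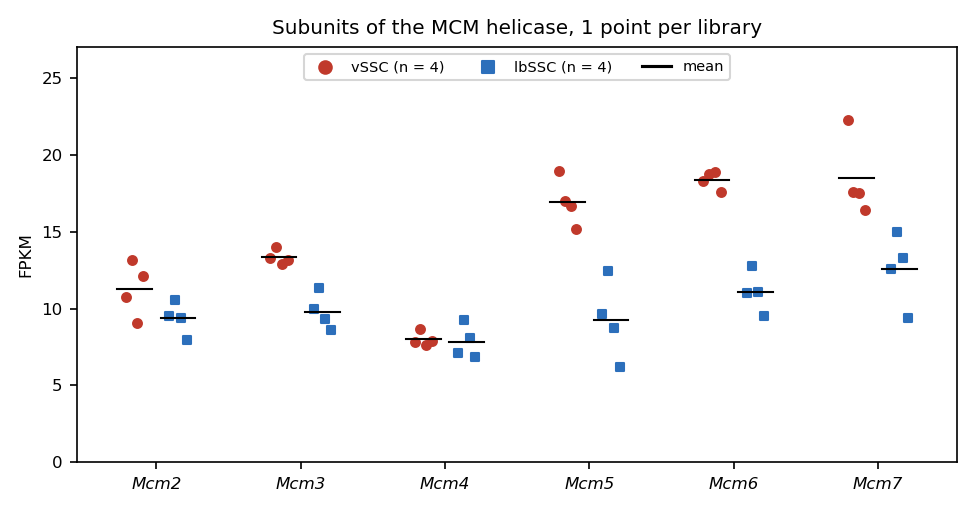
FPKM of the 6 MCM ring subunits in vSSC libraries (circles, left of each pair) and lbSSC libraries (squares), with 1 point per library and a bar at the mean of 4. Mcm3, Mcm5, Mcm6 and Mcm7 lie higher in vSSC with no overlap, Mcm2 overlaps, and the vSSC values of Mcm4 fall within the lbSSC range.

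The start regions of MCM genes are shown because these genes are known E2F targets and 4 of the ring genes were called higher in vSSC. Windows of 300 bases, from 250 before to 50 after the annotated start, were taken from RefSeq (GRCm38.p6) and are printed on the strand of the gene. Capitals mark exact matches to any of the E2F motifs TTTCCCGC, TTTCGCGC, TTTGCCGC and TTTGGCGC on either strand. The window of Mcm5 is chr8:75109259-75109558 on the plus strand. Those of Mcm6, chr1:128359656-128359955, Mcm3, chr1:20820263-20820562, Mcm7, chr5:138171834-138172133, and Mcm2, chr6:88898731-88899030, lie on the minus strand.
Mcm5: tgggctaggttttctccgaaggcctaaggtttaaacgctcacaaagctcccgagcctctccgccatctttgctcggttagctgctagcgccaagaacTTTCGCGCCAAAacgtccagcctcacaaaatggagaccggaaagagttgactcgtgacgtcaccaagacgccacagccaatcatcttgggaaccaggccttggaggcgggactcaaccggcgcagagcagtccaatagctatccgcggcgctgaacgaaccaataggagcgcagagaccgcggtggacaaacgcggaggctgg
Mcm6: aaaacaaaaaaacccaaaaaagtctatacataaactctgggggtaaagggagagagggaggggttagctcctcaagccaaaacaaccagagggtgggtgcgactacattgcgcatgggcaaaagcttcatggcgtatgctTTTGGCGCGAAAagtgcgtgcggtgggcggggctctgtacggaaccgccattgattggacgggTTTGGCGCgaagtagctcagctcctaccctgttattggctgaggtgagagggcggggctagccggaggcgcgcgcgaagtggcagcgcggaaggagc
Mcm3: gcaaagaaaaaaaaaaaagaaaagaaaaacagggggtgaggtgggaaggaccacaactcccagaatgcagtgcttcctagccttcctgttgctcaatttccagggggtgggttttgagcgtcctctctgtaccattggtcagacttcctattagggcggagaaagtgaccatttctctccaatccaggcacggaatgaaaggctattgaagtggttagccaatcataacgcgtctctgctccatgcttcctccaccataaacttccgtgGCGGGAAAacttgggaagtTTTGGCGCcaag
Mcm7: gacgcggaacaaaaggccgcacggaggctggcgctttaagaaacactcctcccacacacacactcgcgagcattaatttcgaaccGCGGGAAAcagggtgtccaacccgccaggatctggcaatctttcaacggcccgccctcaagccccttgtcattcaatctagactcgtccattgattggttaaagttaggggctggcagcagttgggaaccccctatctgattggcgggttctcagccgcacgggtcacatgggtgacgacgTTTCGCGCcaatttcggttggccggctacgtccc
Mcm2: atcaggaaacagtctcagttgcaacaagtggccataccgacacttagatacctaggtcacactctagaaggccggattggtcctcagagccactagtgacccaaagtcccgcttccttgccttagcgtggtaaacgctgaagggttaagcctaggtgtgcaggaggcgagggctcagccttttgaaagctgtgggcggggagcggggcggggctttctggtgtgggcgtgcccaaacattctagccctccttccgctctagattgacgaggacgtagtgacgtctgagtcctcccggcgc

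In Mcm5 the motif TTTCGCGC begins 153 bases before the start and overlaps a TTTGGCGC on the opposite strand, so that both are read in the run TTTCGCGCCAAA. Mcm6 holds the same 2 motifs, overlapping in the other orientation, and a second TTTGGCGC whose first base lies 47 bases before the start. In Mcm3 both matches lie after the start, at positions 20 and 39, and in Mcm7 the matches lie 165 bases before the start and at position 17 after it. A second RefSeq window of Mcm7 and the window of Mcm2 hold none of the 4 motifs, which says only that these letters are not in these stretches. Among the 37 genes, 30 matched RefSeq start windows (35 windows), and Ccne2, Gins1, Gins4, Mcm4, Pole, Prim2 and Rfc2 did not. At least 1 of the 4 motifs lay in 34.3% of the windows of DNA replication genes, against 3.95% of the windows of all tested genes and 2.26% of all RefSeq windows of this length. The median GC content was 61.3% in windows of DNA replication genes and of tested genes, and 52.7% in all windows. CCAAT, searched on both strands, lay in 57.1% of the windows of DNA replication genes and in 37.5% of those of tested genes, and TTTGAA or TTCGAA, known from genes of late cell cycle, in 14.3% of the windows of DNA replication genes and in 13.6% of those of tested genes. Among genes with a window, an E2F motif was found in 6 of 16 called higher in vSSC and in 5 of 13 not called. Orc1, which was not tested, holds 1 as well. A match is a description of the letters and no evidence of binding.

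Both tested genes of origin licensing were called higher in vSSC, where 14.3% of all tested genes were. Cdc6, the ATPase that helps to load the MCM ring, had 1.58, 1.81, 2.104 and 1.60 FPKM in vSSC libraries and 1.13, 1.25, 0.751 and 0.831 FPKM in lbSSC libraries. The groups did not overlap at these low levels (0.48 ± 0.16, SE; limma adjusted p = 0.0432). Orc6, a subunit of the origin recognition complex, had 19.1, 15.5, 19.3 and 14.6 FPKM in vSSC libraries and 12.5, 14.9, 12.2 and 10.6 FPKM in lbSSC libraries. It passed the test narrowly although lbSSC replicate 2 exceeded vSSC replicate 4 (0.42 ± 0.14, SE; limma adjusted p = 0.0485), and it overlaps Vps35 on the opposite strand. Orc1, the largest subunit of the same complex, was below the filter, with 0.694, 0.271, 0.496 and 0.591 FPKM in vSSC libraries and 0.272, 0.868, 1.14 and 0.580 FPKM in lbSSC libraries. Its groups overlapped widely and, with no test, its mean was lower in vSSC, at 0.513 ± 0.180 FPKM against 0.715 ± 0.374 FPKM in lbSSC (SD, n = 4 each).

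Polymerase and primase genes gave 1 call among 5 tested, near the share of 14.3% higher over all tested genes. Pola2, the accessory subunit of polymerase alpha, which with primase starts each new strand, had 3.70, 5.51, 4.90 and 4.20 FPKM in vSSC libraries and 2.62, 3.41, 3.50 and 2.32 FPKM in lbSSC libraries. The groups were close but separate (0.49 ± 0.16, SE; limma adjusted p = 0.0460). Prim2, the large primase subunit, had 15.3, 10.6, 9.42 and 12.7 FPKM in vSSC libraries and 8.71, 10.1, 7.001 and 6.66 FPKM in lbSSC libraries and missed the threshold by little (0.51 ± 0.17, SE; limma adjusted p = 0.0509). Pold1, the catalytic subunit of the lagging-strand polymerase delta, averaged 5.44 ± 0.928 FPKM in vSSC and 4.06 ± 0.661 FPKM in lbSSC, and Prim1, the catalytic primase subunit, 11.6 ± 2.35 FPKM in vSSC and 8.98 ± 1.85 FPKM in lbSSC (SD, n = 4 each). Pola1, the catalytic subunit of polymerase alpha, was scattered in vSSC, with 4.47 FPKM in replicate 1 and 1.89 to 2.48 FPKM in the others, against 1.51 to 2.59 FPKM in lbSSC. These 3 genes differed by 0.32 to 0.34 and did not pass. Pole, the catalytic subunit of the leading-strand polymerase epsilon, was below the filter, with 0.778, 0.720, 0.783 and 0.766 FPKM in vSSC libraries and 0.728, 1.66, 0.809 and 0.868 FPKM in lbSSC libraries. Apart from the high lbSSC replicate 2, its groups had nearly the same level.

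The joining of Okazaki fragments, the short pieces of the lagging strand, was represented by a ligase and a nuclease. Lig1, the DNA ligase, had 5.75, 4.71, 4.71 and 4.92 FPKM in vSSC libraries and 4.04, 3.66, 2.98 and 2.75 FPKM in lbSSC libraries, with no overlap (0.47 ± 0.14, SE; limma adjusted p = 0.0360). Fen1, the flap endonuclease, had 7.90, 5.59, 5.12 and 4.73 FPKM in vSSC libraries and 6.27, 5.77, 3.20 and 4.84 FPKM in lbSSC libraries. Its groups overlapped broadly and it did not pass (0.19 ± 0.20, SE; limma adjusted p = 0.504). Lig1 overlaps Zswim9, and Fen1 overlaps Tmem258, each on the opposite strand.

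Among genes that copy chromatin behind the fork, Chaf1b was called, 1 of 4 tested, where 14.3% of all tested genes were higher. It encodes the middle subunit of CAF-1, which places histones on new DNA, and had 5.95, 5.82, 5.55 and 4.92 FPKM in vSSC libraries and 2.63, 4.05, 2.70 and 2.21 FPKM in lbSSC libraries. The groups were well separated (0.77 ± 0.16, SE; limma adjusted p = 0.00628). Its partner Chaf1a, the large subunit, averaged 1.37 ± 0.169 FPKM in vSSC and 1.02 ± 0.241 FPKM in lbSSC (SD, n = 4 each) and did not pass (0.23 ± 0.15, SE; limma adjusted p = 0.286), and it overlaps Ubxn6 on the opposite strand. Slbp, which binds the stem-loop at the end of histone mRNAs, averaged 20.0 ± 2.48 FPKM in vSSC and 16.1 ± 2.23 FPKM in lbSSC, and Uhrf1, which brings Dnmt1 to newly copied DNA, 3.31 ± 0.942 FPKM in vSSC and 2.58 ± 0.605 FPKM in lbSSC. Neither passed (limma adjusted p = 0.117 and 0.320). Replication-dependent histone genes, whose mRNAs are made in S phase, could hardly be assessed: of 65 rows 56 had a mean under 1 FPKM in both groups, 14 were listed at 0 in every library and 7 were tested. These mRNAs end in a stem-loop without a poly(A) tail, and the library chemistry primes on poly(A). Hist1h4i alone was called, at 8.91 ± 2.66 FPKM in vSSC and 4.13 ± 0.933 FPKM in lbSSC (0.93 ± 0.20, SE; limma adjusted p = 0.00769).

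Some calls depended on single libraries. Leaving out each library in turn, 10 of the 17 genes stayed called without any 1 library: Mcm5, Mcm6, Mcm10, Pcna, Rrm1, Tyms, Tk1, Dut, Chaf1b and Ccne2. The other 7 calls, Cdc6, Orc6, Mcm3, Mcm7, Pola2, Lig1 and Ccne1, were lost without at least 1 library. Ccne1 lost its call without vSSC replicate 1, lbSSC replicate 3 or lbSSC replicate 4 (limma adjusted p up to 0.0733), and Mcm3 without vSSC replicate 1, vSSC replicate 2, lbSSC replicate 3 or lbSSC replicate 4 (up to 0.0742). Mcm7 lost it without vSSC replicates 1, 2 or 3 or lbSSC replicates 3 or 4 (limma adjusted p up to 0.0742). Cdc6 and Orc6 lost it without vSSC replicates 1, 2 or 3 or lbSSC replicates 1, 3 or 4 (up to 0.124 and 0.131), Lig1 without vSSC replicates 1, 2 or 3 or lbSSC replicates 2, 3 or 4 (up to 0.106), and Pola2 when any library other than vSSC replicate 1 was left out (up to 0.134). The differences of these genes stayed above 0 throughout, with 0.34 in Orc6 the lowest.

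Libraries of a group did not share 1 level. Summed over the 37 genes, FPKM was 608, 503, 560 and 468 in vSSC libraries 1 to 4, against 373, 408, 335 and 286 in lbSSC libraries 1 to 4. As a share of the FPKM sum of the library, which does not depend on its scale, the set took 0.107%, 0.0935%, 0.0980% and 0.0904% in vSSC libraries and 0.0715%, 0.0786%, 0.0697% and 0.0622% in lbSSC libraries. The groups did not overlap, and the ratio of the mean shares was 1.38. Replicate 1 of vSSC held the highest value of all 8 libraries in 20 of the 37 genes and replicate 3 in 9, while replicate 4 of lbSSC held the lowest in 25. Within lbSSC, replicate 2 was the highest library for 23 genes. Single libraries thus held the extreme values of many genes at once, also within a group.

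**Figure D3:**
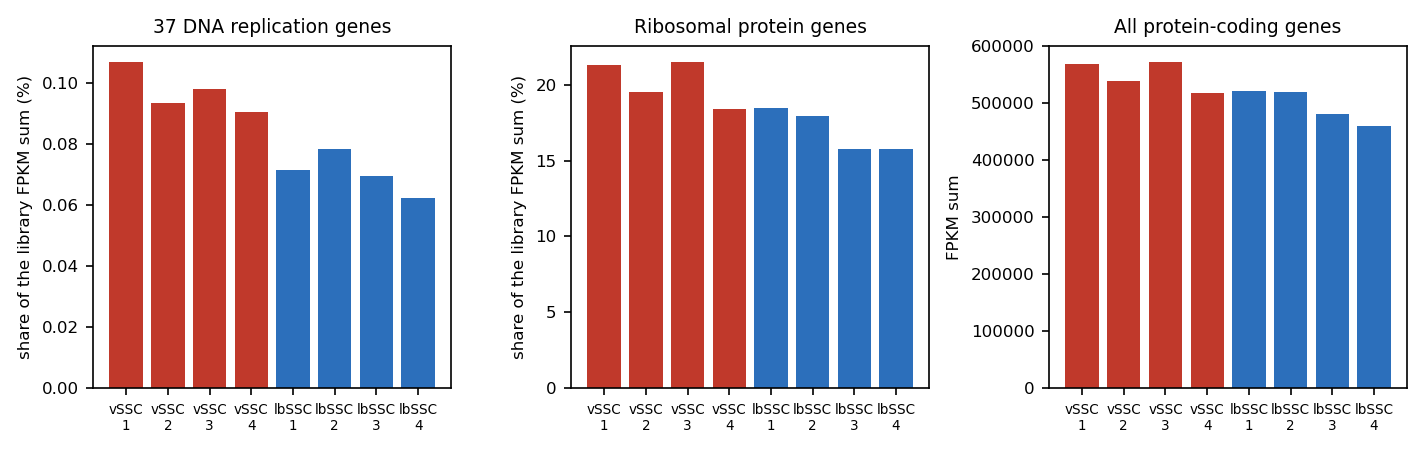
Bars give, for each vSSC library (left 4, red) and each lbSSC library (right 4, blue), the share of the FPKM sum taken by the 37 DNA replication genes, the share taken by ribosomal protein genes, and the FPKM sum of all protein-coding genes. The DNA replication share is 0.0904% to 0.107% in vSSC and 0.0622% to 0.0786% in lbSSC with no overlap, while both other measures overlap between the groups.

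Other measures moved with the same libraries. Ribosomal protein genes took 21.3%, 19.5%, 21.5% and 18.4% of the FPKM sum in vSSC libraries 1 to 4, against 18.5%, 17.9%, 15.8% and 15.7% in lbSSC libraries, so vSSC replicates 1 and 3 were high in both measures and lbSSC replicates 3 and 4 were low. With this share as a covariate none of the 35 genes was called (limma; 5 at an unadjusted p under 0.05), 2.22% of all tested genes were called higher, and the median difference of the set was 0.23. The share nearly follows the site, so what each contributes cannot be told apart. Without vSSC replicates 1 and 3, 7 genes were called and the median difference was 0.43, with 4.69% of all tested genes called higher. Blood markers differed as well, and 8 of 12 were tested: Cd79a, S100a8, S100a9 and Lyz2 were higher in vSSC and Alas2 was lower, with list sums of 3740 to 5090 FPKM in vSSC and 3883 to 7956 FPKM in lbSSC. Erythroid transcripts (Hba-a1, Hbb-bs and Alas2) summed to 4835, 4384, 3709 and 3516 FPKM in vSSC libraries and 7860, 7474, 3861 and 3984 FPKM in lbSSC libraries. With their log2 sum as a covariate, added after seeing the data, 21 genes were called and the median difference was 0.57, while calls over all tested genes were also more frequent, at 21.8% higher. Myeloid transcripts (S100a8, S100a9 and Lyz2) summed to 249, 325, 360 and 215 FPKM in vSSC libraries and 90.0, 95.6, 20.1 and 47.9 FPKM in lbSSC libraries, and Ptprc (CD45) averaged 0.525 ± 0.290 FPKM in vSSC and 0.0402 ± 0.0202 FPKM in lbSSC. The part of myeloid RNA in the results was not tested.

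The scale given to the libraries changed the number of calls and hardly the distance to other genes. Rescaling each library to 1 FPKM sum left 11 of the 35 genes called, median-of-ratios scaling 14 and quantile normalization 16, where 9.34%, 11.9% and 10.2% of all tested genes were called higher. The median difference over all tested genes was 0.08 as deposited, 0.01 under median-of-ratios scaling, 0.03 under quantile normalization and -0.04 after rescaling to 1 sum. Relative to it, the set was higher by 0.39 as deposited and by 0.40 under each of the other scalings. Over all tested genes, 1534 were called higher and 984 lower as deposited, 1274 and 1183 under median-of-ratios scaling, 1091 and 1118 under quantile normalization, and 1002 and 1363 after rescaling to 1 sum. The 6 calls lost after rescaling to 1 sum were Cdc6, Orc6, Mcm3, Mcm7, Pola2 and Lig1. Mcm4 turned negative under all 3 alternatives, at -0.040, -0.0019 and -0.097, in the order median-of-ratios, quantile and 1 sum.

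**Figure D4:**
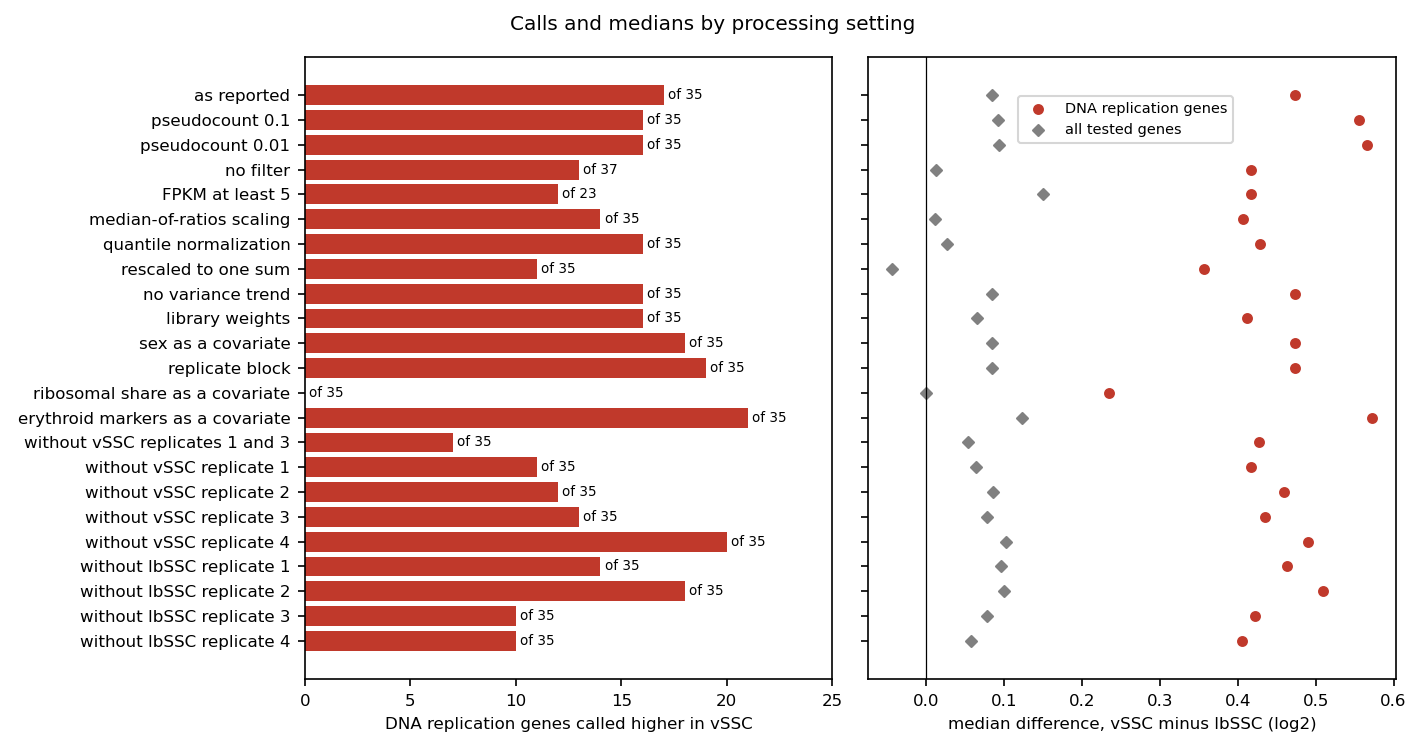
Number of DNA replication genes called higher in vSSC under each processing setting (left, with the number tested) and the median difference vSSC minus lbSSC of these genes (circles) and of all tested genes (diamonds) on the log2 scale (right). The count is 17 of 35 as reported and 0 of 35 with the ribosomal share as a covariate, where 14.3% and 2.22% of all tested genes were called higher. The median of the set lies above that of all genes in each setting.

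No gene of the set was called by sex. The comparison of male minus female libraries, adjusted for site, gave 0 of 35 calls (limma; smallest adjusted p = 0.487) and 6 at an unadjusted p under 0.05, where 0.0466% of all tested genes were called and 8.31% reached the unadjusted threshold. The difference was above 0 in 32 of the 35, with a median of 0.21 against 0.07 over all tested genes. Male libraries had the higher values in the largest cases, with differences of 0.78 in Gins3 and 0.68 in Gins1. The site difference in males minus that in females also gave 0 of 35 calls (limma; 1 at an unadjusted p under 0.05), while 0% of all tested genes were called and 3.77% reached the unadjusted threshold. Its median was -0.16 against -0.06 over all tested genes.

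Genes outside the set were read from lists made for this comparison, which cover replication, G1/S control, mitosis and the response to replication stress. Of 117 tested genes in all, 46 were higher in vSSC, where 14.3% of all tested genes were. Mitosis genes made up 17 of the 46, and E2f2, Ccnd2 and Cdkn1a were lower. The number higher was 39 under median-of-ratios scaling (11.9% of all tested genes), 44 under quantile normalization (10.2%) and 34 after rescaling to 1 sum (9.34%). Other origin and firing factors had 3 of 13 higher and none lower (median difference 0.31), near the share of 14.3% over all tested genes. The 3 were Cdc45, the helicase cofactor, at 4.07 ± 0.750 FPKM in vSSC and 2.45 ± 0.729 FPKM in lbSSC, Gmnn, which inhibits licensing, at 6.07 ± 1.12 FPKM in vSSC and 3.59 ± 1.498 FPKM in lbSSC, and Dbf4, the activator of the kinase Cdc7. Other fork factors had 7 of 18 higher and none lower (median 0.43), with the smallest p in Top2a, a topoisomerase that untangles copied DNA (0.74 ± 0.14, SE; limma adjusted p = 0.00282), and Tipin, a fork protection factor (0.55 ± 0.12, SE; limma adjusted p = 0.00687). Other nucleotide supply genes had 6 of 14 higher and none lower (median 0.45), with the smallest p in Nme1, a nucleoside diphosphate kinase, at 58.8 ± 2.61 FPKM in vSSC and 30.0 ± 8.58 FPKM in lbSSC, and Shmt2, a mitochondrial enzyme of folate metabolism, at 56.3 ± 5.21 FPKM in vSSC and 36.8 ± 4.04 FPKM in lbSSC. Other genes of chromatin copying had 4 of 10 higher and none lower (median 0.43), with the smallest p in Hells, a chromatin remodeller (0.92 ± 0.14, SE; limma adjusted p = 0.00108), and the histone chaperone Asf1b (1.01 ± 0.25, SE; limma adjusted p = 0.0145). Dnmt1, the maintenance DNA methyltransferase, lay against this list at 1.84 ± 0.726 FPKM in vSSC and 2.63 ± 0.755 FPKM in lbSSC without passing (limma adjusted p = 0.249). Supt16 of the same list lay below 0 too (-0.028). So did Mcm9 of the origin factors (-0.098), Top1 of the fork factors (-0.18), and Ctps2 (-0.21) and Rrm2b (-0.060) of nucleotide supply. None of these passed.

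Among E2F and Rb genes, which act upstream of the set, 3 of 15 were higher and 1 was lower (median difference -0.05), near the shares of 14.3% higher and 9.17% lower over all tested genes. Tfdp1, the dimer partner of E2F factors, had 56.3, 46.0, 52.6 and 44.8 FPKM in vSSC libraries and 36.6, 33.7, 36.7 and 28.0 FPKM in lbSSC libraries (0.55 ± 0.12, SE; limma adjusted p = 0.00838). E2f1 averaged 9.86 ± 1.36 FPKM in vSSC and 7.01 ± 0.971 FPKM in lbSSC (limma adjusted p = 0.0435), and E2f2, another activating E2F, went the other way at 3.78 ± 1.40 FPKM in vSSC and 7.47 ± 1.77 FPKM in lbSSC (-0.85 ± 0.22, SE; limma adjusted p = 0.0196). G1/S kinases and activators had 4 of 11 higher and 1 lower. Of the D-type cyclins, which start the release of E2F from Rb, Ccnd1 and Ccnd2 were opposed. Ccnd1 had 46.8, 46.4, 46.3 and 53.2 FPKM in vSSC libraries against 25.5, 23.2, 18.8 and 16.2 FPKM in lbSSC libraries. Ccnd2 had 32.3, 34.9, 28.3 and 32.1 FPKM in vSSC libraries against 51.0, 59.7, 55.0 and 57.8 FPKM in lbSSC libraries. Neither gene had overlapping groups (1.18 ± 0.14 and -0.79 ± 0.10, SE; limma adjusted p = 0.00016 and 0.000332). Ccnd3, the most abundant D-type cyclin, averaged 108.6 ± 4.19 FPKM in vSSC and 127.0 ± 3.36 FPKM in lbSSC. It lay lower in vSSC without overlap and was not called (-0.22 ± 0.09, SE, limma adjusted p = 0.0850). Of 5 CDK inhibitors tested 1 was lower and none higher, where 9.17% of all tested genes were lower. Cdkn1a, the inhibitor induced by p53, averaged 76.9 ± 8.83 FPKM in vSSC and 108.8 ± 12.9 FPKM in lbSSC (-0.50 ± 0.12, SE; limma adjusted p = 0.0129). Cdkn2d, with the next smallest p, was the only 1 of the 5 above 0. It averaged 32.3 ± 5.31 FPKM in vSSC and 23.7 ± 4.56 FPKM in lbSSC and did not pass (0.43 ± 0.15, SE; limma adjusted p = 0.0610).

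Among mitosis genes 17 of 22 tested were higher and none lower, with a median of 0.75. The smallest p were in Nuf2 of the kinetochore, at 10.0 ± 1.21 FPKM in vSSC and 3.48 ± 0.415 FPKM in lbSSC, and Prc1 of the spindle midzone, at 11.04 ± 1.31 FPKM in vSSC and 5.35 ± 0.638 FPKM in lbSSC. Mki67, Cenpf and Cenpe failed the filter and had lower means in vSSC. These were 0.122, 0.236 and 0.110 FPKM in vSSC, against 0.246, 0.363 and 0.118 FPKM in lbSSC. Genes of the response to replication stress had 2 of 9 higher and none lower (median 0.35), near the share of 14.3% higher over all tested genes. Of the 9, Wee1 alone lay below 0, without passing (-0.090). Blm, a helicase of recombination repair, had 6.83, 4.64, 2.80 and 2.66 FPKM in vSSC libraries and 1.35, 1.26, 1.03 and 0.984 FPKM in lbSSC libraries (limma adjusted p = 0.00376). Rad9a, a subunit of the checkpoint clamp, averaged 5.26 ± 0.512 FPKM in vSSC and 3.71 ± 0.432 FPKM in lbSSC (SD, n = 4 each; limma adjusted p = 0.0456). Ribosomal protein genes, which are no part of the cycle, had 34 of 81 higher and 1 lower (median 0.39). Differences between these lists were not tested.

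**Figure D5:**
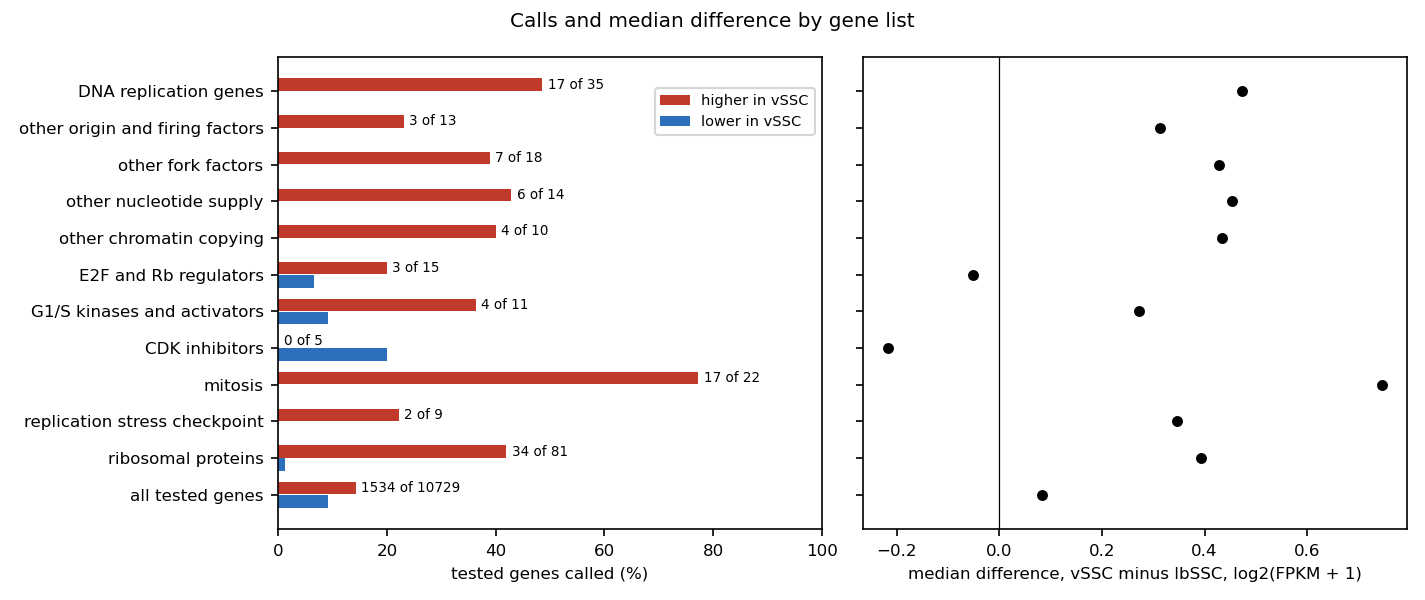
Share of the tested genes of each list called higher (red) and lower (blue) in vSSC at a limma adjusted p under 0.05 (left, with the count higher of the number tested) and the median difference vSSC minus lbSSC (right). DNA replication genes stand at 17 of 35 and mitosis genes at 17 of 22, against 1534 of 10729 over all tested genes, while E2F and Rb regulators and CDK inhibitors have medians below 0.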

How the data were processed

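Gene expression was measured by RNA-seq in 8 libraries, 4 per group, grouped by sample title. Per the labels' protocols, RNA from a column kit was amplified with SMART-Seq v4 and tagged with Nextera XT, an unstranded chemistry. The authors deposited FPKM per protein-coding gene, and per the submitters' processing notes they used bcl2fastq 2.19, STAR 2.5.2 and Cufflinks 2.1.1 with GRCm38. Their parameters were not given in the sources used here. FPKM is relative to the total of each library, so abundant genes can move all others, and no counts were used.

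In R 4.3.3, log2(FPKM + 1) was tested with limma 3.58.1 for 10729 genes that reached an FPKM of 1 in 4 or more libraries (empirical Bayes with a variance trend, Benjamini-Hochberg adjustment over all of them, threshold 0.05) for vSSC minus lbSSC. Differences on this scale understate changes of genes with low values. The fit was tested on simulated data. Where a symbol had several rows, the one with the highest mean was used, which applied to Dut. All 37 genes matched GENCODE M21, and 35 starts matched after 1 was added. No libraries held identical values, and all 37 genes had an OK status in every library.

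Values of single libraries are given for the 2 called genes with the smallest p in each role and for genes that failed the filter, and in each pathway list the 2 genes with the smallest p are named. Others named with single values were chosen after their values were seen. The genes and lists were chosen with earlier results of these data known. Alternatives covered pseudocounts, filters, scalings, covariates, a replicate block and left-out libraries. A planned search of protein motifs was not run, and some genes of the pathway and marker lists are not reported here and were left out of the list counts and sums.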

Additional observations from a re-analysis of the deposited data

Results flagged for a closer look

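In 4 of 78 groups of 4 values examined, 1 library stood far from the other 3, where chance alone flags about 1 in 20 groups. Pole, the catalytic subunit of polymerase epsilon, had 1.66 FPKM in lbSSC replicate 2, with the nearest other lbSSC library at 0.868 FPKM. Rfc2, a clamp loader subunit, had 14.7 FPKM in lbSSC replicate 4, with the nearest lbSSC library at 20.1 FPKM. Slbp, the histone mRNA binding protein, had 16.4 FPKM in vSSC replicate 4, with the nearest vSSC library at 21.0 FPKM. Uhrf1, the reader of newly copied DNA, had 4.71 FPKM in vSSC replicate 1, with the nearest vSSC library at 3.06 FPKM. Rfc2, Slbp and Uhrf1 were not called between the groups, and Pole was not tested.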

How the results depend on the processing

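As reported, 17 genes were higher in vSSC and the median difference was 0.47, and no gene was called lower under any alternative. The count was 11 after rescaling to 1 sum (9.34% of all tested genes called higher) and 7 without vSSC replicates 1 and 3 (4.69%). It was 0 with the ribosomal share as a covariate (2.22%), where 5 reached an unadjusted limma p under 0.05 and the median difference was 0.23. Leaving out each library gave 10 to 20 genes, where 7.82% to 17.5% of all tested genes were called higher. The count was lowest without lbSSC replicate 3 or lbSSC replicate 4 and was 11 without vSSC replicate 1. Medians were 0.41 to 0.51. All other alternatives gave 12 to 21 genes, where 7% to 21.8% of all tested genes were called higher. With replicate number as a block 19 genes were called (18.8% of all tested genes were called higher, against 14.3% without it), Cdc6 was lost (limma adjusted p = 0.0608) and Gins1, Prim2 and Rrm2 were added. Same-numbered libraries deviated together with r = 0.26, -0.09, -0.06 and 0.44, and not every library correlated best with its own number, so the numbers were not taken as a pairing. Mcm4 fell below 0 under median-of-ratios scaling (-0.040), quantile normalization (-0.0019) and rescaling to 1 sum (-0.097), without lbSSC replicate 1 (-0.0032) and without lbSSC replicate 4 (-0.020), where Rfc3 did too (-0.015). Over all single libraries left out, Mcm4 ranged from -0.020 to 0.11 and Rfc3 from -0.015 to 0.31. With the ribosomal share as a covariate Gins1 (-0.12), Pola1 (-0.090), Rfc2 (-0.090), Fen1 (-0.29), Rrm2 (-0.085), Uhrf1 (-0.063) and Slbp (-0.057) did. The cause was not tested. Calls by sex and by the interaction of site and sex stayed at 0 in each alternative run. The 9 MCM pairs stayed at 9 with a pseudocount of 1. Depth was not used here, so how far it limits the lowest genes, Orc1, Pole, Mcm10 and Chaf1a, was not assessed.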
